A study of Rattus norvegicus with 13 samples.

Results

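DSB hotspots that were strong in SHR relative to WKY numbered 2069. They were chosen by their hotspot strength in 2 of the 5 DMC1 libraries of the deposited table, wild-type SHR and WKY. A window was eligible when its hotspot strength in wild-type SHR was at least 50 and no other window of the table started within 3000 bp. It was taken when its strength in WKY was also below 2 times that in SHR. The table lists 96640 windows, of which 91120 were autosomal, 75246 of these were isolated and 12274 were eligible. The taken windows, called SHR-skewed below, thus made up 16.9% of the eligible windows (exact binomial 95% interval 16.2 to 17.5%), and the remaining 10205 are called the other windows. The limit of 2 was a relative one, because the autosomal strengths of WKY summed to 4.68 times those of SHR. In unscaled strength, WKY was below SHR in 717 of the 2069 windows (34.7%).

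The study mapped DSBs in rats by SSDS, which sequences the single-stranded DNA recovered from adult testes with an antibody against DMC1. Libraries came from wild-type males of the SHR/OlaIpcv, WKY and BN/RIJHsd strains and from SHR/OlaIpcv rats of the genotypes Prdm9+/- (KO/wt) and Prdm9-/- (KO/KO). According to the study's text, SHR and WKY are related and carry the same Prdm9 allele, BN carries a distinct one, and the KO/KO male was homozygous for a truncating deletion. Each condition was represented by 1 library. No difference between strains or genotypes therefore has a replicate check, no test was possible, and the animal, the library and the strain or genotype cannot be told apart. The intervals given here cover the counting of windows only.

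PRDM9 is a histone methyltransferase that binds DNA through an array of zinc fingers and trimethylates H3K4 around its binding sites, where programmed DSBs are then made. DMC1 is the meiotic recombinase that coats the resected DNA ends, so its fragments mark the places of unrepaired breaks in spermatocytes. The zinc fingers differ between Prdm9 alleles, and with them the sites of the breaks. In mice that lack PRDM9, the breaks move to sites carrying H3K4me3 for other reasons, among them promoters.

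Strength is a whole number given by the authors for each window and library, and how it was computed and normalized is not given in the sources used here. It can fall below 0. Sums over the autosomal windows were 12607770 in WKY, 2773263 in BN and 2691262 in wild-type SHR, and 3324708 in the KO/wt and 3949727 in the KO/KO library. A mark in the table shows in which libraries a hotspot call was made. The depth in reads is unknown.

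In WKY and wild-type SHR, whose values chose the windows, the SHR-skewed windows covered a broad range. Their strength in SHR was from 50 to 7282 with a median of 137, and in WKY from -22 to 13250 with a median of 149. The other windows had medians of 94 in SHR and 429 in WKY. The ratio of WKY to SHR strength had a median of 1.37 in the SHR-skewed windows, 4.10 in the other windows and 3.65 in all eligible windows. The SHR-skewed windows held 24.0% of the summed SHR strength of the eligible windows. Their share was larger among strong hotspots. It was 11.4% at SHR strengths of 50 to 99 (702 of 6170), 17.3% at 100 to 199 (688 of 3967), 28.2% at 200 to 399 (488 of 1732) and 47.2% at 400 or more (191 of 405). These shares follow in part from the rule, since the same SHR value stands in the strength class and in the ratio.

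**Figure D1:**
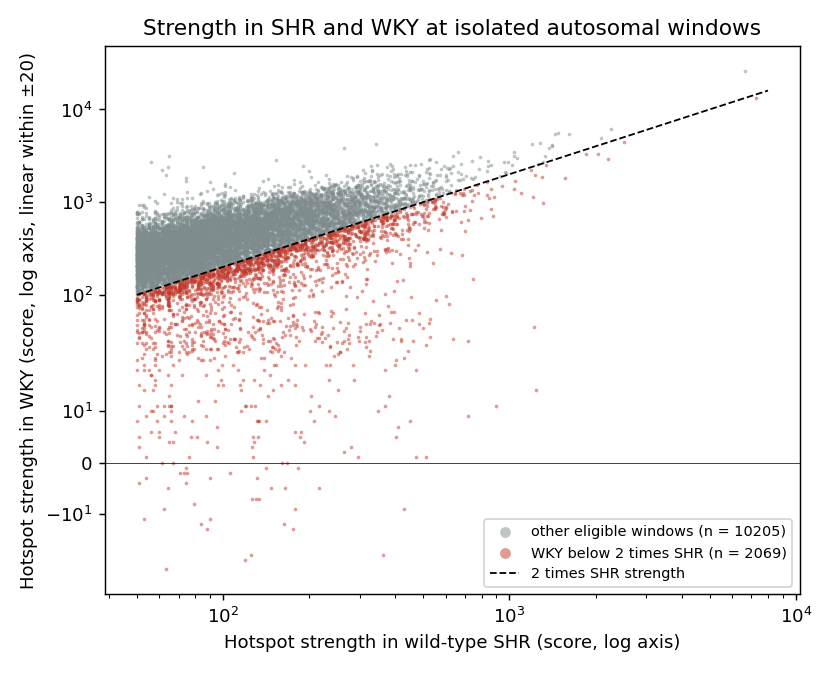
Hotspot strength in wild-type SHR (x axis, log scale) and WKY (y axis, log scale, linear within 20 of 0) at the 12274 eligible windows. The 2069 SHR-skewed windows lie below the dashed line at 2 times the SHR strength, and they reach from just below it down to strengths under 0 in WKY.

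The ratio divided the SHR-skewed windows into 3 kinds. In 272 of them (13.1%) the WKY strength was under 0.25 of the SHR strength, in 445 (21.5%) it was between 0.25 and 1, and in 1352 (65.3%) it was between 1 and 2. The first kind was nearly free of signal in WKY, with a median of 18.5 against 164.5 in SHR, and 2 of the 272 were called in WKY. In the second kind 174 were called in WKY (39.1%) and in the last 1268 (93.8%). In all, hotspots were called in WKY in 1444 of the SHR-skewed windows (69.8%) and in wild-type SHR in 1953 (94.4%), while 94.7% of the eligible windows were called in WKY and 95.1% in SHR. A majority were therefore hotspots of both strains that differed in strength, and 547 were called in SHR and KO/wt but not in WKY.

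On both sides of the limits the values were close. The 199 windows with a ratio from 1.9 up to 2 had medians of 155 in SHR and 300 in WKY. The 242 windows with a ratio from 2 up to 2.1 had medians of 130.5 in SHR and 268.5 in WKY. At the limit of strength, the 17 SHR-skewed windows with an SHR strength of 50 had a median of 61 in WKY, and the 16 windows at 49 that met the ratio had a median of 55.

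SHR KO/wt rats carry 1 intact copy of the Prdm9 allele of SHR and WKY, and their library was not used in choosing the windows. The strength of the SHR-skewed windows in KO/wt was from 1 to 9559, with a median of 153 (95% interval 144 to 160), against 137 in wild-type SHR. The other windows had medians of 93 in KO/wt and 94 in SHR, so the SHR-skewed windows were stronger in both. At SHR strengths of 50 to 99 the KO/wt medians were 62 in the SHR-skewed and 60 in the other windows. They were 147 and 135 at 100 to 199, 339.5 and 313 at 200 to 399, and 733 and 668 at 400 or more. Hotspots were called in KO/wt in 1828 of the 2069 (88.4%, 86.9 to 89.7%). The background in the eligible windows was 89.2%, so that the share of calls was close to it. In 1812 of the SHR-skewed windows (87.6%) the KO/wt strength was at least 50.

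The order of the windows was largely kept between both SHR libraries. Across the 2069 windows, Spearman's rho between wild-type SHR and KO/wt strength was 0.876, and it was 0.545 between WKY and KO/wt. In the other windows these values were 0.808 and 0.604. These are descriptions across windows of the same libraries, which are not independent replicates, and the range of the strengths differed between the groups by the rule.

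When KO/wt took the place of wild-type SHR in the rule, 1570 of the SHR-skewed windows met it (75.9%, 74.0 to 77.7%), and 1139 of the other windows did (11.2%, 10.6 to 11.8%). Both versions of the rule use the same WKY values, and only the SHR side was measured anew. At low WKY to SHR ratios the limit on WKY was therefore met almost by construction. In the 272 windows with a ratio under 0.25, a KO/wt strength of at least 50 was found in 244 (89.7%), and all 244 also met the limit on WKY. At ratios of 1 to 2 the KO/wt strength was at least 50 in 1186 of 1352 windows (87.7%), and 946 (70.0%) also met the limit on WKY.

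The 272 windows with little signal in WKY had signal in KO/wt. In these, the median was 164.5 for wild-type SHR against 190 for KO/wt, and 261 were called in KO/wt (96.0%, 92.9 to 98.0%). The share was 89.2% in all eligible windows, which is not a like base. All 272 were called in wild-type SHR, and only 3 of 116 SHR-skewed windows without that call were called in KO/wt. At SHR strengths of 50 to 99 the share was 86.2% in the 272 and 82.5% in the other windows. The shares were 98.9% and 97.2% at 100 to 199, 98.7% and 97.7% at 200 to 399, and 100% and 96.3% at 400 or more. In the 272 windows the rho between SHR and KO/wt strength was 0.900. Their medians were 8 in BN and 3 in KO/KO, near the 9 and 3 of the other windows. The strongest 3 of them in SHR were singled out after their values were seen. Their SHR strength lay far above their WKY strength by this choice, and their KO/wt strength, which was not used in it, was high as well. The first, on chromosome 5 of rn5 from 2829884 to 2832884, had strengths of 1241 in SHR, 1842 in KO/wt, 14 in WKY, 3 in BN and 19 in KO/KO. The next lay on chromosome 11 from 84060598 to 84063598, with 1220 in SHR, 1896 in KO/wt, 45 in WKY, -6 in BN and 8 in KO/KO. The last lay on chromosome 17 from 86909605 to 86912605, with 898 in SHR, 1018 in KO/wt, 11 in WKY, 24 in BN and 3 in KO/KO. All of these were called in SHR and KO/wt and in no other library.

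**Figure D2:**
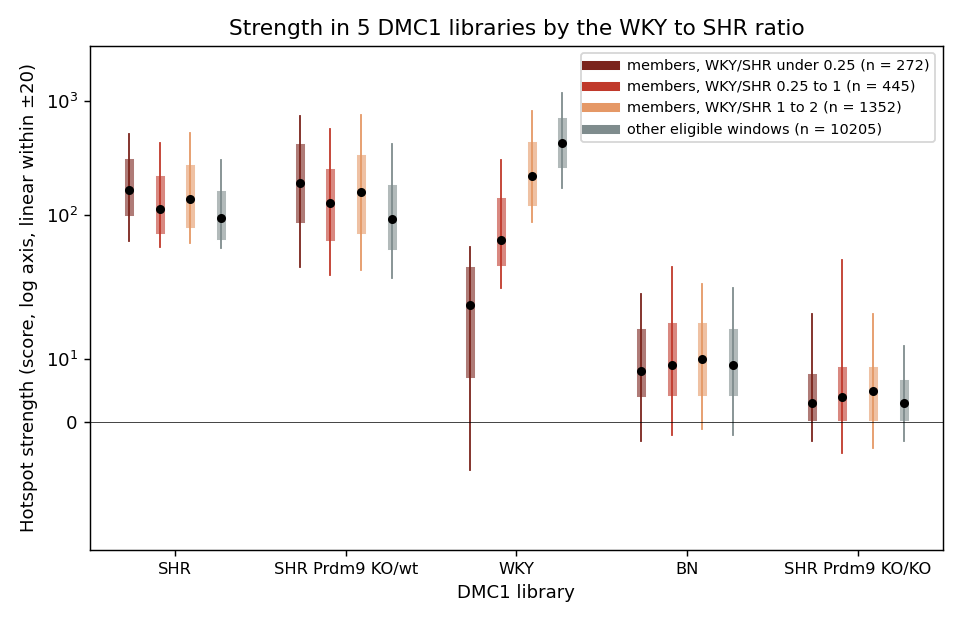
Hotspot strength (y axis, log scale, linear within 20 of 0) in the 5 DMC1 libraries for the SHR-skewed windows by WKY to SHR ratio and for the other windows. Points are medians, thick bars the middle 50% and thin lines the middle 90% of windows; in the windows with a ratio under 0.25 the medians are 164.5 in SHR and 190 in KO/wt, against 18.5 in WKY, 8 in BN and 3 in KO/KO.

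The 5 windows with the lowest ratio among those of at least 100 in SHR had WKY strengths below 0. On chromosome 2, the window from 199129960 to 199132960 had strengths of 119 in SHR, 201 in KO/wt, -19 in WKY, 18 in BN and 2 in KO/KO. The window on chromosome 12 from 31368229 to 31371229 had 125 in SHR, 68 in KO/wt, -18 in WKY, 5 in BN and -2 in KO/KO. On chromosome 3, from 180280345 to 180283345, the strengths were 175 in SHR, 145 in KO/wt, -13 in WKY, 14 in BN and -2 in KO/KO. In each of these the KO/wt strength lay above those of BN and KO/KO, and above that of WKY, which was low by the choice. The same held on chromosome 2 from 249572140 to 249575140, with 163 in SHR, 194 in KO/wt, -12 in WKY, 5 in BN and 1 in KO/KO, and on chromosome 10 from 16700890 to 16703890, with 126 in SHR, 125 in KO/wt, -7 in WKY, -3 in BN and 7 in KO/KO. All 5 were called in SHR and KO/wt only. WKY strengths below 0 were found in 33 of the SHR-skewed windows.

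With 1 functional Prdm9 copy the strength relative to the wild type was near 1 in the median and varied widely between windows. The scale between both libraries is unknown. The ratio of KO/wt to SHR strength had a median of 1.06 in the SHR-skewed windows (95% interval 1.04 to 1.09), and 90% of them lay between 0.435 and 2.07. It was below the ratio of the summed autosomal strengths, which was 1.24. In the other windows the median was 0.957 (0.947 to 0.967), so that the SHR-skewed windows were 1.11 times higher. This difference went with the SHR strength. At SHR strengths of 50 to 99 the medians were 0.856 in the SHR-skewed and 0.860 in the other windows, at 100 to 199 they were 1.04 and 1.00, at 200 to 399 they were 1.23 and 1.20, and at 400 or more 1.34 and 1.31. The same SHR value stands in the class and in the ratio, so the rise over the classes is a description, and its cause was not tested. The 95% intervals of the medians overlapped in each of the 4 classes, and within classes the excess of the SHR-skewed windows fell to 1.02 times.

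**Figure D3:**
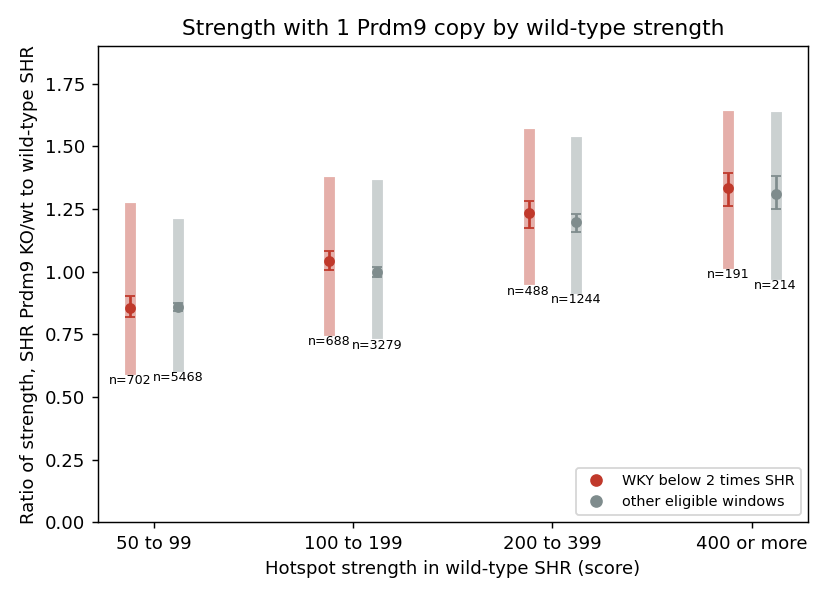
Ratio of hotspot strength in SHR Prdm9 KO/wt to wild-type SHR (y axis) by wild-type strength class (x axis). Points are medians with 95% intervals over windows and thick bars the middle 50% of windows; the medians rise from 0.856 to 1.34 in the SHR-skewed windows and from 0.860 to 1.31 in the other windows.

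Calls in KO/wt also went with the SHR strength. Of the SHR-skewed windows, 76.2% were called in KO/wt at SHR strengths of 50 to 99, 93.6% at 100 to 199, 95.5% at 200 to 399 and 95.8% at 400 or more. The other windows had 82.5%, 97.2%, 97.7% and 96.3% in the same classes. In the weakest 2 classes the share was thus lower in the SHR-skewed windows, although it was similar over all classes together. The KO/wt strength was below 0.25 of the SHR strength in 20 of the SHR-skewed windows (0.967%) and in 78 of the other windows (0.764%).

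Among SHR-skewed windows of at least 100 in SHR, the lowest ratio of KO/wt to SHR was 0.0579, on chromosome 1 from 186132814 to 186135814. This window was called in wild-type SHR alone, with strengths of 242 in SHR, 14 in KO/wt, 87 in KO/KO, 44 in WKY and 23 in BN. It thus stood out in SHR against each other library. The highest ratio, 4.82, was found on chromosome 14 from 107870145 to 107873145, in a window that was also the strongest of all SHR-skewed windows in KO/KO.

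KO/KO testes lack PRDM9, and nearly all SHR-skewed windows were without signal there. Their strength in KO/KO had a median of 4 (95% interval 4 to 5), and 90% of them lay between -4 and 18. The other windows had a median of 3. Hotspots were called in KO/KO in 40 of the 2069 windows (1.93%, 1.38 to 2.62%), above the 0.839% of all eligible windows and the 0.617% of the other windows (63 windows, 0.475 to 0.789%). The calls were most frequent among weak windows. At SHR strengths of 50 to 99, 3.56% of the SHR-skewed and 0.786% of the other windows were called in KO/KO. At 100 to 199 these shares were 1.60% and 0.457%, and at 200 to 399 they were 0.410% and 0.402%. At 400 or more, 2 of 191 SHR-skewed windows and 0 of 214 other windows were called. Hotspot calls in KO/KO were thus several times as frequent in the SHR-skewed windows below 200, and the shares did not separate in the classes from 200 up. With windows that have a close neighbour kept, the shares were 3.58% in the SHR-skewed and 1.46% in the other windows, and with an SHR strength of at least 100 they were 1.10% and 0.422%.

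The 40 SHR-skewed windows called in KO/KO were all called in both other SHR libraries, and 23 of them in WKY. The 63 other windows called in KO/KO were likewise all called in both, and 62 of them in WKY. The difference in WKY calls follows in part from the rule. Median strengths of the 40 were 80.5 in SHR, 130.5 in KO/wt, 61 in KO/KO, 91 in WKY and 8 in BN. The ratio of KO/wt to SHR strength had a median of 1.41 in them (95% interval 1.23 to 1.58), against 1.06 (1.03 to 1.09) in the SHR-skewed windows without a KO/KO call. In the 63 other windows called in KO/KO it was 1.58 (1.33 to 1.69). Windows with a KO/KO call thus had relatively more signal in KO/wt than in wild-type SHR in both groups.

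In 15 of the SHR-skewed windows (0.725%, 0.406 to 1.19%) the KO/KO strength exceeded that of wild-type SHR. The same was found in 49 of the other windows (0.480%, 0.355 to 0.634%), and the intervals overlapped. The strongest of the 15 was the window on chromosome 14 named above, which was called in all 5 libraries. Its strength was 109 in SHR, 525 in KO/wt, 1561 in KO/KO, 180 in WKY and 63 in BN. In the SHR rats the strength at this site was thus highest with no functional Prdm9 copy and lowest with both. The next 2 strongest in KO/KO were singled out after their values were seen. On chromosome 16, the window from 2520045 to 2523045 measured 54 in SHR, 235 in KO/wt, 872 in KO/KO, 40 in WKY and 16 in BN, the same order across the genotypes. A window on chromosome 1 from 186986485 to 186989485 was strong in every SHR library, with 1307 in SHR, 1800 in KO/wt and 753 in KO/KO, and had 973 in WKY and 193 in BN, where it was not called.

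BN rats carry another Prdm9 allele, and BN signal at the SHR-skewed windows was low. The BN strength had a median of 10 (95% interval 9 to 10), and 90% of the windows lay between -2 and 25. The other windows had a median of 9. Hotspots were called in BN in 46 of the SHR-skewed windows (2.22%, 1.63 to 2.95%). The background was 1.95% of the eligible windows, and 1.89% of the other windows (1.64 to 2.17%), so that the intervals overlapped. With windows that have a close neighbour kept, the shares were 3.47% in the SHR-skewed and 2.83% in the other windows. Of the 272 windows with a ratio under 0.25, 2 were called in BN. Across the 2069 windows, the rho between SHR and BN strength was 0.0116, and that between SHR and KO/KO strength was 0.102, both far below the 0.876 between SHR and KO/wt.

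The 46 windows called in BN had medians of 97 in BN, 94.5 in SHR, 154.5 in KO/wt, 124.5 in WKY and 7.5 in KO/KO. Of these, 33 were called in SHR, 33 in KO/wt and 28 in WKY. BN strength exceeded that of SHR in 18 of the 2069 windows (0.870%) and in 114 of the other windows (1.12%). Among the SHR-skewed windows the highest BN strength was 1245, on chromosome 3 from 52856859 to 52859859. This window had 403 in SHR, 329 in KO/wt, 20 in WKY and 5 in KO/KO, and was called in SHR, KO/wt and BN. It was thus a hotspot of strains with different Prdm9 alleles, with almost no signal in the WKY library, whose Prdm9 allele is that of SHR.

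The combinations of calls were few. Calls in SHR, KO/wt and WKY together accounted for 1229 of the 2069 windows (59.4%), and calls in SHR and KO/wt alone for 524 (25.3%). A further 64 windows were called in SHR alone, 64 in SHR and WKY, and 100 in WKY alone. The combinations were not counted in the other windows. Their WKY part follows in part from the rule, which chose low WKY strengths. Calls in WKY were made in 99.8% of the other windows and in 69.8% of the SHR-skewed windows. The 116 windows that were not called in wild-type SHR had a median SHR strength of 115, a median of 150.5 in KO/wt and a median of 150 in WKY. Of these, 102 were called in WKY (87.9%), 13 in BN (11.2%) and 3 in KO/wt (2.59%). In all eligible windows the shares were 94.7%, 1.95% and 89.2%. Every SHR-skewed window was called in some library, so a window without a call in SHR had one elsewhere. The shares of the 116 windows follow in part from this. These windows entered by their SHR strength and not by a call in SHR. A high strength without a call was found up to 1346 in SHR. That window, on chromosome 7 from 3571060 to 3574060, was singled out after its values were seen. It had 2802 in KO/wt, 2526 in WKY, 10 in KO/KO and -3 in BN, and was called in WKY alone.

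The position on the chromosome was not used in the rule beyond the distance to the next window. The SHR-skewed windows were unevenly spread over the autosomes. They made up 25.9% of the eligible windows on chromosome 11 (113 of 436, 21.9 to 30.3%), 24.0% on chromosome 20 (56 of 233), 22.1% on chromosome 18 (86 of 390) and 21.8% on chromosome 2 (274 of 1257, 19.5 to 24.2%). The lowest shares were 8.88% on chromosome 12 (19 of 214, 5.43 to 13.5%) and 11.7% on chromosome 10 (68 of 581, 9.20 to 14.6%). The intervals of chromosomes 11 and 2 thus lay above those of chromosomes 10 and 12.

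SHR-skewed windows were more frequent towards the ends of the mapped chromosomes. They made up 28.5% of the eligible windows in the first 10 Mb (222 of 780, 25.3 to 31.8%) and 28.3% in the last 10 Mb up to the last window of the chromosome (282 of 997, 25.5 to 31.2%), against 14.9% elsewhere (1565 of 10497, 14.2 to 15.6%). The end zones held 504 of the SHR-skewed windows (24.4%) and 12.5% of the other windows. The kinds of windows differed in this. Windows with a ratio of 1 to 2 made up 21.9% of the first 10 Mb, 18.1% of the last 10 Mb and 9.54% of the interior. Windows with a ratio under 0.25 made up 1.15% of the first 10 Mb (0.529 to 2.18%), 3.11% of the last 10 Mb (2.12 to 4.38%) and 2.21% of the interior (1.94 to 2.51%), and showed no such excess at both ends. The median ratio of KO/wt to SHR was lower at the ends in the SHR-skewed windows, at 0.949 (0.903 to 0.997) against 1.11 (1.08 to 1.14), and in the other windows, at 0.773 (0.750 to 0.806) against 0.982 (0.970 to 0.997).

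**Figure D4:**
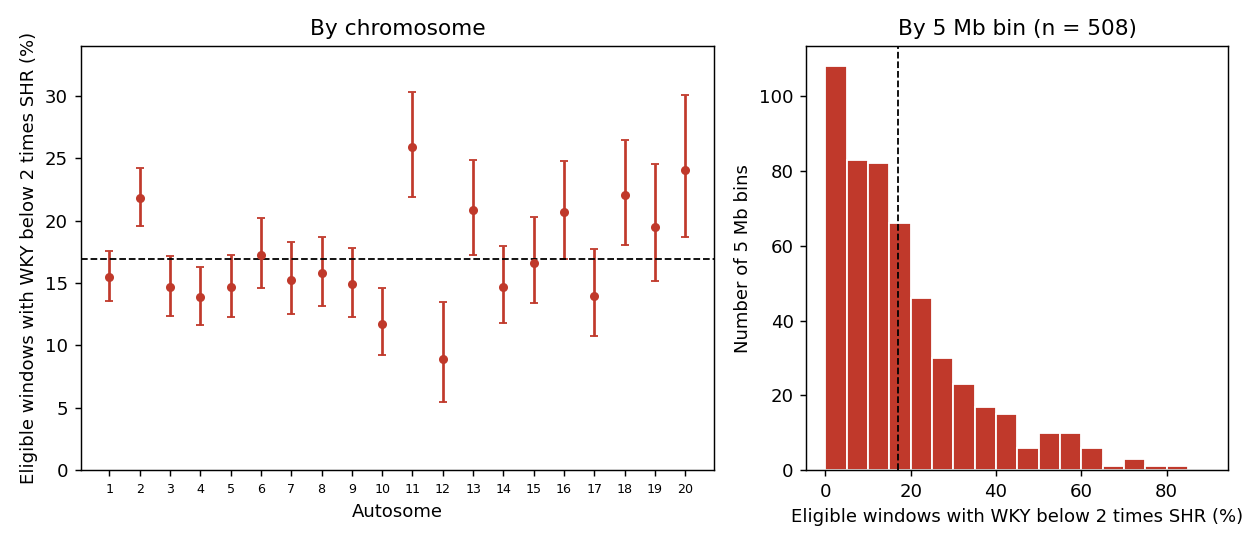
Left, SHR-skewed windows as a percentage of the eligible windows of each autosome, with exact binomial 95% intervals; right, number of 5 Mb bins by that percentage among the 508 bins with at least 10 eligible windows. Dashed lines mark the 16.9% of all eligible windows; chromosomes 11 and 12 stand farthest from it, and the bins have a tail up to 84.6%.

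Within chromosomes the SHR-skewed windows lay together. Of 508 bins of 5 Mb with at least 10 eligible windows, 66 had no SHR-skewed window among 1494 eligible windows. The share over bins had a median of 13.3%, with quartiles of 6.67 and 23.5%, and reached 84.6%. In 32 bins it was at least 50%. These bins held 394 of the SHR-skewed windows (19.0%) and 5.40% of the eligible windows, and in 15 of them all eligible windows were within 10 Mb of an end. In the 269 other windows of these bins the WKY to SHR ratio had a median of 2.86, against 4.14 in the other windows elsewhere. The bins were chosen through the same ratio and the same libraries, so this is a description and no separate evidence of clustering. The 32 bins held 21.7% of the windows with a ratio of 1 to 2, 18.2% of those of 0.25 to 1 and 6.99% of those under 0.25.

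The highest share was found on chromosome 20 between 55 and 60 Mb, where 11 of 13 eligible windows were SHR-skewed (84.6%, 54.6 to 98.1%). Their strengths were 63 to 226 in SHR, 50 to 235 in KO/wt, 19 to 340 in WKY, 5 to 25 in BN and -3 to 31 in KO/KO. All 11 were called in SHR, 10 in KO/wt, 7 in WKY and 0 in BN or KO/KO. On chromosome 5 between 90 and 95 Mb, 12 of 16 were SHR-skewed, with 53 to 197 in SHR, 38 to 378 in KO/wt and 47 to 303 in WKY. All 12 were called in SHR and KO/wt, 8 in WKY, and 0 had a ratio under 0.25. On chromosome 8 between 130 and 135 Mb, 11 of 15 were SHR-skewed (73.3%), with 53 to 586 in SHR, 33 to 970 in KO/wt and 10 to 881 in WKY, and 9 were called in KO/wt and 9 in WKY. In these 3 bins 24 of the 34 SHR-skewed windows were thus called in both strains, beside 1342 of all 2069 SHR-skewed windows. Of all eligible windows, 95.1% were called in SHR, 89.2% in KO/wt, 94.7% in WKY, 1.95% in BN and 0.839% in KO/KO. Calls in WKY are fewer in SHR-skewed windows in part by the rule.

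The window that followed an SHR-skewed window on the chromosome, among the eligible windows, was SHR-skewed in 32.9% of cases (678 of 2060, 30.9 to 35.0%). After another window this was so in 13.6% (1385 of 10194, 12.9 to 14.3%). Each kind also followed its own kind more often than it followed the rest of the eligible windows. The shares were 26.8% and 9.04% at ratios of 1 to 2, 11.8% and 3.32% at ratios of 0.25 to 1, and 8.82% (24 of 272, 5.74 to 12.8%) and 2.07% (248 of 11982, 1.82 to 2.34%) at ratios under 0.25.

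The neighbourhood extended over megabases. Among eligible windows starting less than 0.05 Mb from an SHR-skewed window, 37.4% were SHR-skewed, and 13.6% of those as close to another window were. At 0.25 to 0.5 Mb the shares were 30.0% and 14.0%, at 1 to 2 Mb they were 25.8% and 14.0%, and at 2 to 5 Mb 20.4% and 14.3%. They came together at 10 to 20 Mb, with 16.0% and 15.9%. Pairs of windows enter these shares more than once, and no interval is given for them.

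**Figure D5:**
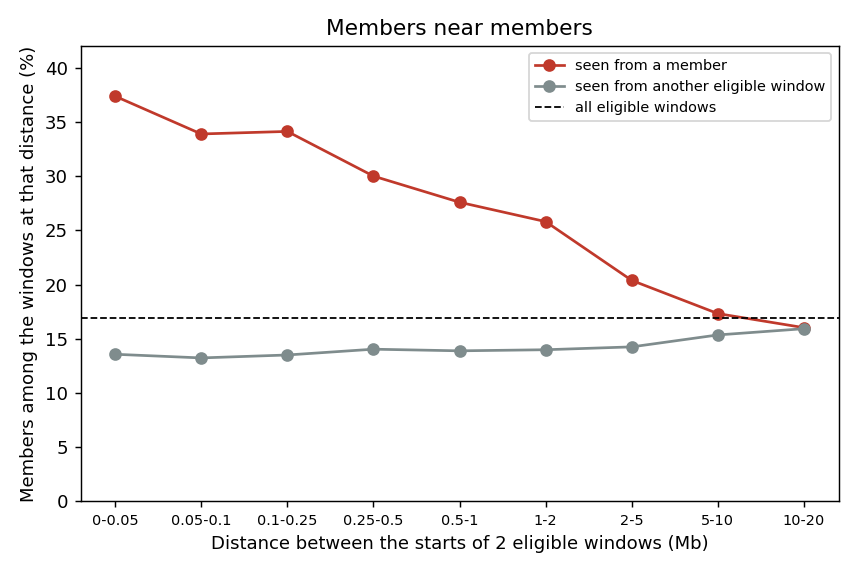
Percentage of SHR-skewed windows (y axis) among eligible windows at a given distance in Mb (x axis), seen from SHR-skewed windows or from the other windows. The dashed line marks the 16.9% of all eligible windows; the curve seen from SHR-skewed windows falls from 37.4% to 16.0%, where both curves meet.

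The longest run of successive eligible windows that were all SHR-skewed comprised 16 windows on chromosome 2 from 281995692 to 284507990. It spanned 2.51 Mb and ended 0.558 Mb before the last window of the chromosome. Strengths in the run were 50 to 885 in SHR, 14 to 863 in KO/wt, 9 to 1150 in WKY, -1 to 18 in BN and -6 to 11 in KO/KO. The ratio of WKY to SHR ranged from 0.123 to 1.94 with a median of 1.46. Of the 16 windows, 13 were called in KO/wt and 11 in WKY. These shares were 88.4% and 69.8% in all SHR-skewed windows, and 89.2% and 94.7% in all eligible windows. The run thus held strong and weak hotspots, and the lowest WKY strength, 9, stood in a window with an SHR strength of 73.

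The 5 windows with the highest SHR strength all lay on chromosome 1 between 150400564 and 153214965, a stretch of 2.81 Mb. The strongest, from 153211965 to 153214965, had 7282 in SHR, 9559 in KO/wt, 13250 in WKY, -4 in BN and 46 in KO/KO. The window from 150837642 to 150840642 had 2511 in SHR, 3254 in KO/wt, 4477 in WKY and 21 in KO/KO, and with 362 it was also called in BN. The window from 150991641 to 150994641 had 2217 in SHR, 2960 in KO/wt, 2899 in WKY and 16 in KO/KO, and was called in BN with a strength of 132. These windows were thus very strong in all libraries with the Prdm9 allele of SHR and WKY, and both BN calls were far weaker. The fourth window, from 151417788 to 151420788, had 2036 in SHR, 2373 in KO/wt, 3317 in WKY, 5 in BN and 12 in KO/KO. The fifth, from 150400564 to 150403564, had 1846 in SHR, 2808 in KO/wt, 3327 in WKY, 1 in BN and 13 in KO/KO.

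In this stretch of chromosome 1, 24 of 40 eligible windows were SHR-skewed, with medians of 478 in SHR and 701.5 in WKY, and they held 6.27% of the SHR strength of all SHR-skewed windows. Of the 50 strongest SHR-skewed windows, 11 lay there. All 24 were called in WKY, 4 in BN (16.7%), 18 in KO/wt (75%) and 0 in KO/KO, beside 94.7%, 1.95%, 89.2% and 0.839% of all eligible windows. In wild-type SHR 18 of the 24 were called as well (75%), beside 95.1% of all eligible windows. The stretch was looked at after the position of the 5 windows was known.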

How the data were processed

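The authors aligned SSDS reads of adult rat testes to the rn5 assembly and called DMC1 hotspots. The submitters' processing notes name BWA 0.7.12, bedtools 2.23.0 and MACS2 2.1.0.20150420, without a role for each. The deposited table merges the calls of 5 libraries and gives for each window and library a strength, used here as a score of unstated scaling so that ratios between libraries carry an unknown scale, and a call of 1 or 0. Windows are 3000 bp long, except 1 (96639 of 96640). Coordinates are given as deposited. Depth in reads is unknown, and intervals cover counting over windows only. The H3K4me3 and input libraries of the series (13 samples in all) and an rn5 genome or annotation were not used here, so no sequences or genes are given.

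Columns were assigned to samples by strain and genotype in their names. The windows, ratio classes and measures were chosen with earlier results of these data known. Strengths in SHR and WKY chose the windows and are described without a test. Shares have exact (Clopper-Pearson) and medians binomial order-statistic 95% intervals. End zones are 10 Mb from the first base and from the last window. Bins of 5 Mb needed 10 eligible windows. Windows were named by rule: the 5 strongest in SHR, the 5 of lowest WKY to SHR ratio at an SHR strength of at least 100, the strongest in BN and in KO/KO, the highest and lowest KO/wt to SHR ratio at that strength, the 3 densest bins and the longest run. Others are said to have been singled out. Alternatives were another strength limit, other ratio limits, neighbouring windows kept, strength classes and other bins. Computations were made with scipy 1.17.1, pandas 2.3.3 and numpy 2.4.6 in Python 3.11.15, and figures with matplotlib 3.10.9. The code was tested on simulated data, in part placed at positions of the 91120 autosomal windows. Of 8 known answers 8 were recovered, some of them within a set tolerance.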

Additional observations from a re-analysis of the deposited data

How the results depend on the processing

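Of 26 recomputed values, 10 stayed within the interval of the reported value. With an SHR strength of at least 100, 1367 windows were SHR-skewed in place of 2069, and the values moved as follows: share of eligible windows from 16.9 to 22.4%, calls in KO/wt from 88.4 to 94.6% (other windows 97.3%), in KO/KO from 1.93 to 1.10% (0.422%) and in BN from 2.22 to 1.61% (1.88%), median ratio of KO/wt to SHR from 1.06 to 1.14, excess over the other windows from 1.11 to 1.07, and SHR-skewed windows after an SHR-skewed window from 32.9 to 40.0% (17.2% after another). Within strength classes the excess fell to 1.02. With WKY below SHR, 717 windows were left, calls in KO/wt were 90.0% (other windows 89.1%), and the share after one of them fell to 15.2%, against 5.27% after another. With WKY below 2.34 times SHR, which is 0.5 of the ratio of the summed strengths, the share of eligible windows was 23.2%. With neighbouring windows kept, 2595 windows were SHR-skewed, calls were 83.4% in KO/wt (other windows 85.3%), 3.58% in KO/KO (1.46%) and 3.47% in BN (2.83%), and the share after one of them was 35.7%. In bins of 2 Mb the highest share was 100%. The cause of these moves was not tested, apart from the strength classes and limits that define them. No paired analysis was possible because each strain and genotype had 1 library, and nothing here rests on a test.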

Other observations

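On chromosome X, outside the rule, 175 of 1196 windows that were isolated and had an SHR strength of at least 50 had a WKY strength below 2 times that of SHR (14.6%, exact binomial 95% interval 12.7 to 16.8%). Their median strengths were 522 in SHR, 565 in KO/wt, 520 in WKY, 6 in KO/KO and 5 in BN, and 160 of them were called in KO/wt (91.4%, 86.3 to 95.1%), beside 1064 of all 1196 (89.0%, 87.0 to 90.7%). The study scaled strengths on X by 2 in a figure because males have a single X, and whether the deposited X strengths carry that factor is not stated. The ratios between libraries do not depend on it, but the limit of 50 does. The ratio of KO/wt to SHR had a median of 1.26.

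As a group, the SHR-skewed windows of the autosomes lay farther from hotspots called in KO/KO, BN and WKY than the other windows did. The nearest other window called in KO/KO was at a median distance of 41.8 kb from them (95% interval 38.7 to 45.2 kb), and of 29.3 kb from the other windows (28.6 to 30.1 kb). For hotspots called in BN the medians were 56.7 kb (53.5 to 60.9 kb) and 43.7 kb (42.5 to 45.0 kb), and for those called in WKY 30.7 kb (29.2 to 32.6 kb) and 26.2 kb (25.7 to 27.0 kb). For hotspots called in wild-type SHR they were 45.2 kb (42.4 to 48.1 kb) and 43.0 kb (41.8 to 44.0 kb), with overlapping intervals. The windows with a WKY to SHR ratio under 0.25 had medians of 31.1 kb (26.2 to 39.6 kb) for KO/KO, 46.2 kb (37.6 to 54.8 kb) for BN and 28.7 kb (24.6 to 31.6 kb) for WKY, and each interval overlapped that of the other windows. At ratios of 0.25 to 1 the intervals for KO/KO and WKY overlapped as well. Those with a ratio of 1 to 2 were at 46.8 kb from KO/KO hotspots (42.4 to 51.0 kb).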
